A study of Mus musculus with 44 samples.

Results

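The contacts of the mouse α-globin promoters were compared between libraries made from 10,000 and from 100,000 erythroid cells. The 6 libraries were chosen by their column names in the table of α-globin interactions by cell number, which holds 12 libraries, and they are 6 of the 44 samples of the series. Both groups held 3 libraries, named A, C and E for 10,000 cells and A, D and E for 100,000 cells. All 6 came from primary Ter-119+ erythroid cells of female C57BL/6 mice. The labels name no engineered allele. All of the mice were given 3 doses of phenylhydrazine (40 mg/g), 12 h apart, and were killed after 5 days. Phenylhydrazine lyses red cells, so these are spleen erythroid cells formed under strong anaemia rather than at rest. The cells of both groups were fixed in 2% formaldehyde and carried through the low-input Capture-C protocol (LI-Capture-C), so the number of cells was the labelled difference. The labels do not say which cells came from separate mice. The p-values therefore measure the spread between these libraries, which may be technical. No RNA was measured, and the erythroid identity could not be checked against marker genes.

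In Capture-C, chromatin is cross-linked, cut with the restriction enzyme DpnII at GATC and ligated, so that fragments that lay close together in the nucleus become joined. Biotinylated oligonucleotides then pull down the fragments that hold a chosen promoter, the viewpoint, with their ligation partners. Each unique interaction is counted as a distinct ligation junction after removal of PCR duplicates. The number of unique interactions that a sample can give is bounded by the number of cells. The α-globin genes are a standard test of such methods. In erythroid cells the adult genes Hba-a1 and Hba-a2 are strongly expressed and contact a cluster of erythroid enhancers that lies upstream, mostly within introns of the neighbouring housekeeping gene Nprl3. The enhancers are named R1, R2, R3, Rm and R4. In mouse deletion experiments R1 and R2 are known as the strong members, and R3, Rm and R4 are weaker.

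Both promoters were captured and their interactions were added together by the authors, because the genes are near-identical copies. The promoter of Hba-a1 is shown because it is one of the pooled viewpoints and stands for both. These are the 250 bases before the RefSeq start of Hba-a1 (GRCm38.p6, chr11:32283422-32283671, plus strand), with the CCAAT box and the TATAA motif in capitals:
Hba-a1 promoter: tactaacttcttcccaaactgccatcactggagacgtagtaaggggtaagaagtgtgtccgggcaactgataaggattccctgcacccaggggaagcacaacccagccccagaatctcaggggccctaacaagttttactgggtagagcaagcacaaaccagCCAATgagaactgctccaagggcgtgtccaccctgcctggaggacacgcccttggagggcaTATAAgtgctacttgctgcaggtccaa
The CCAAT box begins at position -88 and TATAA at position -27 from the start. The RefSeq promoter of Hba-a2 shared an unbroken run of 247 bases with it, at an offset of 3 bases. Searched on both strands of the same 250-base window, CCAAT was present in 33.8% of the 32851 RefSeq promoters in the table, TATAA in 22.8% and GATC in 41.9%. The window of Hba-a1 held no GATC, so DpnII does not cut within it. The interaction table uses the older build mm9, and there the viewpoints appeared as 2 gaps without listed fragments, at chr11:32181399-32185213 for Hba-a1 and at chr11:32194504-32198003 for Hba-a2. Their centres lay 12.9 kb apart. In the RefSeq gene order (GRCm38), Rhbdf1, Mpg, Nprl3 and the embryonic gene Hba-x precede Hba-a1, and Hbq1b lies between the adult genes. Hbq1a, Sh3pxd2b and Ubtd2 follow Hba-a2. The side of Nprl3 is called the enhancer side here, with distances taken from Hba-a1, and the other is called the opposite side, with distances taken from Hba-a2.

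The libraries of 10,000 cells held 3356, 3394 and 2571 unique interactions, a mean of 3107 ± 465 (SD, n = 3). Those of 100,000 cells held 42989, 52093 and 47030. A single interaction thus stood for 29.5 to 38.9 per 100,000 in the small libraries and for 1.92 to 2.33 per 100,000 in the large ones, and a count of 0 in a library of 10,000 cells allowed up to 88.4 to 117 per 100,000 (3 counts of the total). Shares are given per 100,000 interactions of the library, which is the scale of the study's profiles. Interactions on chromosome 11 made up 65.6, 67.2 and 66.2% in 10,000 cells and 65.0, 68.0 and 63.1% in 100,000 cells, and the groups overlapped (difference 0.953 percentage points, 95% interval -3.17 to 5.07, exact permutation p = 0.6). Interactions within 250 kb of the promoters were 35.3% in each library of 10,000 cells, against 31.8, 33.7 and 30.4% in 100,000 cells. The groups did not overlap, and the difference was 3.31 percentage points (95% interval 0.653 to 5.96, two-sided exact permutation p = 0.1, adjusted over these 2 shares 0.2). With 3 libraries against 3, 0.1 is the smallest p that the exact test can give, so no single comparison of this kind could pass 0.05.

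Each of the 5 enhancers was placed by its name, which gives its distance upstream of Hba-x in kb, plus 7 kb from Hba-x to Hba-a1. The windows of 5 kb then lay 36 to 41 kb from Hba-a1 for R1, 31 to 36 kb for R2, 26 to 31 kb for R3, 16 to 21 kb for Rm and 11 to 16 kb for R4. The window from 21 to 26 kb held no element. As a comparator, each window was set beside its mirror window, at the same distance beyond Hba-a2 on the opposite side. A window was called visible in a library where the exact 95% Poisson intervals of the counts of window and mirror did not overlap. These intervals cover counting error only. The rule compares the sides, so a visible window need not hold an enhancer.

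All 5 enhancer windows were visible in each of the 3 libraries of 10,000 cells, 15 of 15 pairs of window and library, as in the libraries of 100,000 cells. R1, one of the strong enhancers and the farthest from the genes, had the fewest interactions, with 29, 32 and 18 in the libraries of 10,000 cells against 5, 4 and 4 in its mirror window. R2, the other strong enhancer, had the most, with 105, 94 and 75 interactions against 9, 4 and 2. The window of R3 held 97, 61 and 53 interactions against 10, 2 and 15. Rm, nearer to the genes, held 43, 66 and 35 against 16, 32 and 12, the lowest ratio to its mirror among the 5 in every library. R4, the nearest, held 64, 73 and 58 against 11, 22 and 7. In every library of 10,000 cells the window of R2 thus exceeded its mirror by more than that of R1 or Rm, counted per window. As a ratio per fragment this did not hold in library A, where R1 had 144 per 100,000 against 13.5 in its mirror and R2 261 against 29.8.

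**Figure D1:**
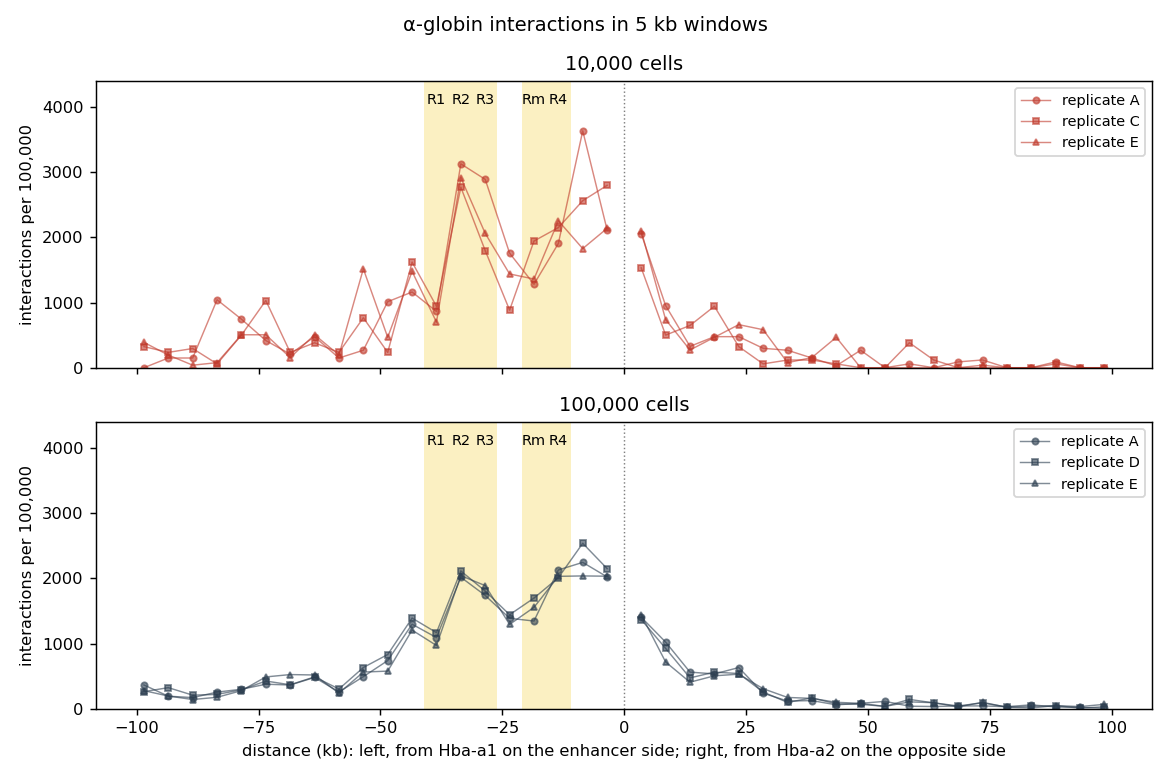
Interactions per 100,000 in 5 kb windows up to 101 kb from the promoters, by library, for 10,000 cells (top) and 100,000 cells (bottom). The horizontal axis gives the distance in kb, negative from Hba-a1 on the enhancer side and positive from Hba-a2 on the opposite side, and shading marks the enhancer windows. In both groups the enhancer side is higher than the opposite side over the shaded windows, and the 3 lines of 10,000 cells lie farther apart.

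The windows also stood above the more distant part of the same side. All 15 pairs of window and library exceeded the mean of the 5 kb windows 56 to 96 kb from Hba-a1, in 10,000 and in 100,000 cells. So did the nearer window without an element, in all 6 libraries. This comparison therefore cannot tell an enhancer window from a window that is merely nearer to the genes. Against the window without an element the picture was weaker. In 100,000 cells, 11 of 15 pairs exceeded it, and in 10,000 cells 7 of 15. Those 7 were R2 in 3 libraries, R3 in 2, Rm in 1 and R4 in 1, and R1 exceeded it in no library of either group. Library C gave R2, R3, Rm and R4, library A gave R2 and R3, and library E gave R2 alone. In C the element-free window was low, with 30 interactions against 46.7 predicted from the mean share in 100,000 cells. The element-free window held 1758, 884 and 1439 per 100,000 in 10,000 cells and 1389, 1444 and 1295 per 100,000 in 100,000 cells. Its mirror held 477, 324 and 661 per 100,000 in 10,000 cells. By the same rule the element-free window was itself visible in libraries A and C and not in E. In 100,000 cells it was visible in all 3 libraries, with 597, 752 and 609 interactions against 272, 282 and 250 in its mirror. The number of DpnII fragments differed between the windows, with 6 for R1, 12 for R2, 14 for R3, 12 for Rm, 10 for R4 and 12 for the element-free window. Per fragment, the mean in 100,000 cells was 180 per 100,000 for R1, 172 for R2, 129 for R3, 128 for Rm and 206 for R4, and 115 in the window without an element. In 10,000 cells R1 held 144, 157 and 117 per fragment, against 147, 73.7 and 120 in the element-free window. R1 was thus second to R4 per fragment in 100,000 cells, while in 10,000 cells it was below the element-free window in libraries A and E. The next window outward, from 41 to 46 kb, which was looked at after the values were seen, held 1162, 1621 and 1478 per 100,000 in 10,000 cells and 1298, 1392 and 1208 in 100,000 cells. It was above the R1 window in all 6 libraries, so by window total R1 did not form a peak of its own at 5 kb. The R1 window held only 6 fragments, and this comparison was not made per fragment.

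The visibility rested on treating each interaction as an independent count. On other chromosomes interactions also shared fragments. The average such interaction lay on a fragment with 4.71, 4.12 and 4.04 interactions in 10,000 cells and with 4.97 to 5.17 in 100,000 cells. With every count divided by the library's own value, an alternative chosen after the data were seen, 6 of 15 pairs stayed visible in 10,000 cells and 15 of 15 in 100,000 cells. The 6 were R2 in 3 libraries, R3 in 2 and R4 in 1. After the same division 11 of 15 pairs of 10,000 cells exceeded the windows 56 to 96 kb away, with R1 in 0 of 3 libraries and Rm in 2 of 3. None of the 15 pairs of 10,000 cells (0 of 15, R2 included) exceeded the element-free window, against 7 of 15 in 100,000 cells. Single fragments in place of windows, taken at the elements' nominal places, left 8 of 15. The distance from Hba-x to Hba-a1 is approximate, so a neighbouring fragment may hold the element. The fragment at the place of R1 (1288 bp) held 15, 1 and 5 interactions in 10,000 cells, and the one at the place of Rm (2201 bp) held 11, 16 and 0. R2 was the one element above its mirror window in all 3 libraries of 10,000 cells both by window and after this division.

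**Figure D2:**
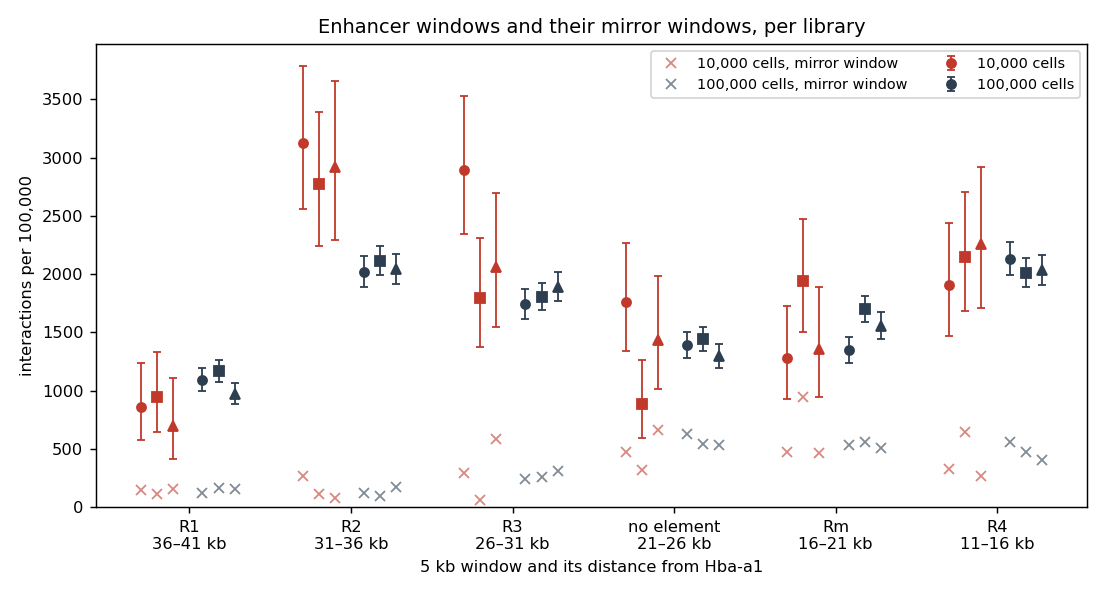
Interactions per 100,000 in the 5 enhancer windows and the element-free window, 1 point per library with the exact 95% Poisson interval of its count, and crosses for the mirror windows. The intervals of 10,000 cells are wider, and the 3 points of R2 in 10,000 cells (2770 to 3129) lie above those of 100,000 cells (2019 to 2115).

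The shares of the windows were then compared between the groups. The R1 window held 864, 943 and 700 per 100,000 in 10,000 cells and 1093, 1169 and 972 in 100,000 cells. All 3 small libraries were below all 3 large ones. The R2 window held 3129, 2770 and 2917 per 100,000 in 10,000 cells and 2019, 2115 and 2043 in 100,000 cells, and here all 3 small libraries were above the large ones. R3 held 2890, 1797 and 2061 against 1740, 1806 and 1890, with library A of 10,000 cells far above the other values. Rm held 1281, 1945 and 1361 against 1347, 1699 and 1556, and R4 held 1907, 2151 and 2256 against 2131, 2012 and 2033. In Rm, R4 and R3 the groups overlapped.

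With edgeR's quasi-likelihood test over the 77 windows of chromosome 11 with a mean count of at least 10, no window passed an adjusted p of 0.05. The stretch between the promoters was tested whole and is counted among the 77. The share called was 0%, and 12 windows (15.6%) had an unadjusted p under 0.05. Of the 5 enhancer windows, R2 alone was among those 12. The groups did not overlap in 15 of the 77 windows (19.5%), R1 and R2 among them. Of the 12 and of the 15, 8 were windows without an interaction in 10,000 cells, which passed the filter through the other group alone. Among the 69 windows with an interaction in 10,000 cells, 4 (5.8%) had an unadjusted p under 0.05 and 7 (10.1%) did not overlap. That no window passed does not show that the shares were equal. R2 differed by 0.51 on the log2 scale (10,000 over 100,000 cells, SE 0.13, edgeR adjusted p = 0.148) and R1 by -0.36 (SE 0.19, adjusted p = 0.464). R3 differed by 0.32 (SE 0.18, adjusted p = 0.468), R4 by 0.03 and Rm by 0.00. With TMM factors the median of all tested windows moved from 0.03 to -0.18, and R2 then differed by 0.30 (adjusted p = 0.261). DESeq2 called 2 windows, with its own size factors and with those from library totals, both higher in 10,000 cells. They were R2 (adjusted p = 0.0139 and 0.000578) and the window 76 to 81 kb from Hba-a1 on the enhancer side, which is named because DESeq2 called it. It held 745, 501 and 506 per 100,000 in 10,000 cells, from 25, 17 and 13 interactions, and 279 to 300 per 100,000 in 100,000 cells. edgeR also called R2 where windows needed a mean count of 30 (adjusted p = 0.0396) and where library C of 10,000 cells was left out (adjusted p = 0.0466). Without library C it also called the window 1 to 6 kb from Hba-a2 on the opposite side, again higher in 10,000 cells. That window held 2056, 1532 and 2100 per 100,000 in 10,000 cells and 1369 to 1442 in 100,000 cells.

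Within the R2 window the mean share was higher in 10,000 cells in 9 of 12 fragments. The largest difference lay in the fragment chr11:32148903-32149605 (mm9, 703 bp), with 488 per 100,000 in 10,000 cells and 200.0 in 100,000 cells, which made up 32.7% of the difference of the window. In the libraries of intermediate cell number from the same table, R2 held 1721, 1723 and 2448 per 100,000 in 20,000 cells and 2062, 2080 and 2153 in 50,000 cells. The highest library of 20,000 cells thus lay below the lowest of 10,000 cells. The R1 window held 842 to 1280 per 100,000 in 20,000 cells and 724 to 975 in 50,000 cells. For R1 the libraries of 50,000 cells thus overlapped with those of 10,000 cells (700 to 943), and its share did not rise steadily with cell number. By single fragments within 250 kb, edgeR called 0 of 200 (0%), with 27 (13.5%) at an unadjusted p under 0.05, and DESeq2 called 0 with its own size factors and 2 with those from library totals.

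From the mean shares in 100,000 cells, a count could be predicted for each enhancer window at the depth of each library of 10,000 cells. The predicted count lay within the Poisson interval of the observed one in 11 of 15 pairs. The exceptions were all above the prediction. They were R2 in all 3 libraries, with 105, 94 and 75 interactions observed and 69.1, 69.9 and 52.9 predicted, and R3 in library A, with 97 observed and 60.8 predicted. Set against the mean of their own group, the libraries of 100,000 cells also gave 11 of 15. There R1 in D and E and Rm in A and D lay outside, at 0.88 to 1.11 times the predicted count. The exceptions among the enhancer windows of 10,000 cells were at 1.34 to 1.59 times. For the element-free window of 10,000 cells the prediction lay within the interval in A and E. In C the window fell below it, with 30 observed and 46.7 predicted.

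The enhancer region as a whole, from 11 to 41 kb, took up 11.8, 10.5 and 10.7% of all interactions in 10,000 cells and 9.72, 10.2 and 9.79% in 100,000 cells. The groups did not overlap, and the difference was 1.10 percentage points (95% interval -0.13 to 2.33, exact permutation p = 0.1). Its mirror region took up 2.00, 2.21 and 2.22% against 2.21, 2.10 and 2.09%, with overlapping groups (difference 0.00687 points, 95% interval -0.223 to 0.237, exact permutation p = 0.9). The region was thus higher than its mirror by 2.36 ± 0.18 on the log2 scale in 10,000 cells and by 2.22 ± 0.08 in 100,000 cells (SD, n = 3).

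Single fragments were lost at the lower depth. Of the 66 fragments of the enhancer region, 11, 12 and 19 (16.7, 18.2 and 28.8%) had no interaction in the libraries of 10,000 cells, against 0, 2 and 1 in those of 100,000 cells. The median count per fragment was 5, 4 and 3 in 10,000 cells. Of the 66, 36 had interactions in all 3 small libraries, 21 were empty in 1 library, 6 in 2 and 3 in all 3. The fragments that were empty in at least 1 library had a median length of 247 bp and the others one of 376 bp. In the mirror region 67.7 to 72.3% of 65 fragments were empty in 10,000 cells and 3.08 to 13.8% in 100,000 cells.

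**Figure D3:**
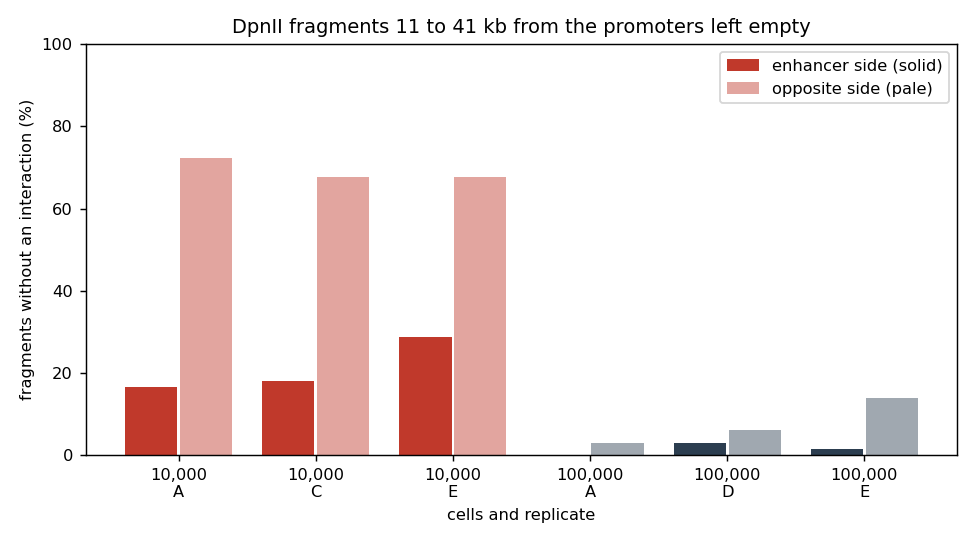
Share of DpnII fragments without an interaction, in percent, among the fragments 11 to 41 kb from the promoters, by library. Solid bars are the 66 fragments of the enhancer side and pale bars the 65 of the opposite side, and the solid bar of library A of 100,000 cells is at 0.

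The reach of the profile shortened in the same way. On the enhancer side, 21 of the 50 windows of 5 kb out to 251 kb had interactions in all 3 libraries of 10,000 cells, and 41 of 50 in all 3 of 100,000 cells. The unbroken run of such windows reached 96 kb from Hba-a1 in 10,000 cells and 151 kb in 100,000 cells. On the opposite side 9 and 40 of 50 windows did so, and the run reached 46 and 111 kb from Hba-a2. Of the 77 tested windows, 8 had no interaction in any library of 10,000 cells. They passed the filter on the mean count through the libraries of 100,000 cells alone, where their means were 41.7 to 69.1 per 100,000, so their difference is not a result.

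Interaction density was lower at longer distances on both sides, though not from each class to the next in every small library. On the enhancer side, 393 ± 37.8 interactions per kb per 100,000 lay 10 to 20 kb from Hba-a1 in 10,000 cells and 374 ± 15.2 in 100,000 cells (SD, n = 3). From 20 to 50 kb, where R1, R2 and R3 lie, the density was 319 ± 44.5 and 284 ± 11.2. It dropped to 76.0 ± 4.75 and 69.2 ± 3.86 at 50 to 100 kb, and to 12.5 ± 4.51 and 10.8 ± 1.65 at 100 to 200 kb. On the opposite side of 10,000 cells the mean was 2.65 per kb per 100,000 at 100 to 200 kb and 3.60 at 200 to 500 kb. Nearer to the genes, the density of the opposite side was 116 ± 58.2 and 121 ± 15.2 at 10 to 20 kb and 47.5 ± 22.8 and 43.8 ± 2.19 at 20 to 50 kb. By group means the density of the enhancer side fell less from the first to the next of these classes than that of the opposite side. Library E of 10,000 cells was an exception, with 393 and 307 on the enhancer side and 77.8 and 67.4 on the opposite side. None of 20 distance classes, both sides, the stretch between the genes and other chromosomes included, passed edgeR's adjusted p of 0.05, and none had an unadjusted p under 0.05 (0% by either).

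The decay was summarised per library as the slope of log2 interactions per kb on log2 distance from 10 to 2000 kb. On the enhancer side the slopes were -1.53, -1.42 and -1.49 in 10,000 cells and -1.35, -1.36 and -1.38 in 100,000 cells. All 3 small libraries were steeper, by 0.12 on average (difference -0.12, 95% interval -0.21 to -0.02, exact permutation p = 0.1, adjusted over 3 slope comparisons 0.3). This rested on the far classes. From 500 to 1000 kb the enhancer side held 13, 26 and 21 interactions in 10,000 cells, and with the slope taken from 10 to 500 kb the difference was 0.00. It was -0.21 from 50 to 2000 kb and -0.07 by Poisson regression from 10 to 2000 kb. On the opposite side the slopes were -1.12, -1.29 and -1.06 against -1.21, -1.17 and -1.21, and the groups overlapped (difference 0.04, 95% interval -0.15 to 0.23, exact permutation p = 0.6). The slope of the enhancer side minus that of the opposite side averaged -0.33 and -0.17, again with overlapping groups (exact permutation p = 0.4).

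**Figure D4:**
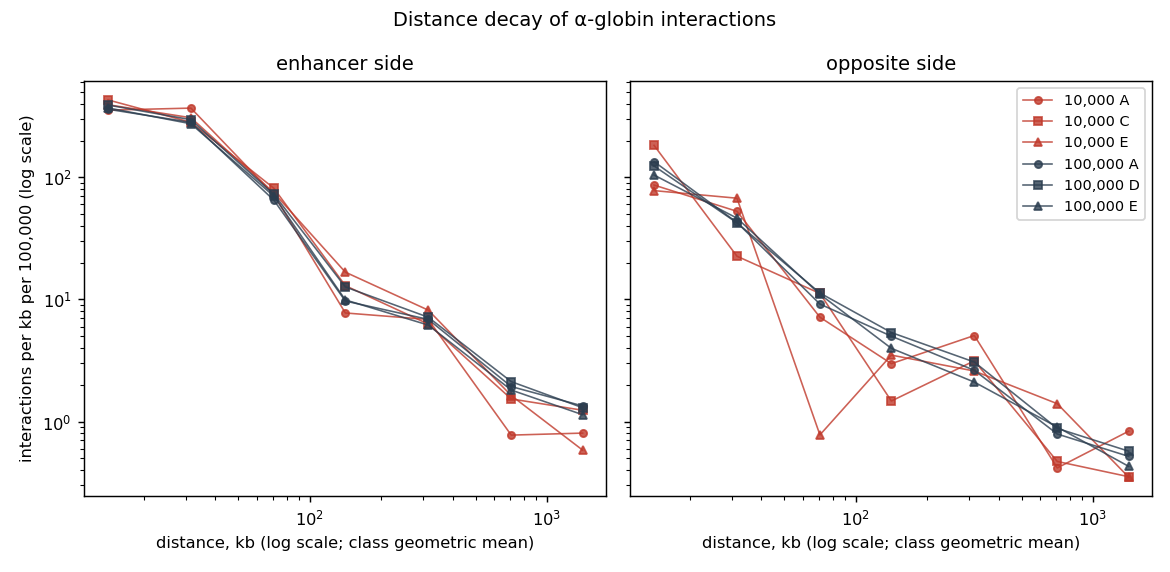
Interactions per kb per 100,000 against distance in kb, both on log scales, for 7 distance classes from 10 to 2000 kb, with 1 line per library and each class at its geometric mean distance. On the enhancer side (left) the lines of both groups run close together to about 100 kb, and on the opposite side (right) library E of 10,000 cells drops at 50 to 100 kb, where it held 1 interaction.

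The preference for the enhancer side, as the log2 ratio of its interactions to those of the opposite side at equal distance, was present in both groups. At 10 to 20 kb it was 2.04, 1.24 and 2.34 in 10,000 cells and 1.42, 1.66 and 1.83 in 100,000 cells. At 20 to 50 kb, the class of R1, R2 and R3, it was 2.81, 3.64 and 2.19 against 2.72, 2.81 and 2.57, which is an enhancer side on average 7.36 and 6.49 times higher. The groups overlapped in both classes (exact permutation p = 0.5 and 0.7). Counted by distinct fragments in place of interactions, the differences were 1.13 and 1.47 on the log2 scale, against 0.23 and 0.18 (exact permutation p = 0.1 for both). In 100,000 cells most listed fragments held an interaction, 22 of 22 and 24 to 27 of 27 on the opposite side at 10 to 20 kb. At 20 to 50 kb these were 69 to 72 of 72 and 46 to 51 of 57. The ratio by distinct fragments thus had little room to vary there. Whether these differences follow from depth was not tested. By interactions, every library of both groups preferred the enhancer side in these classes. Those of 10,000 cells lay farther apart (SD 0.73 against 0.12 on the log2 scale at 20 to 50 kb).

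Beyond 50 kb the small libraries rested on few counts. At 50 to 100 kb the ratio was 3.33, 2.86 and 6.58 in 10,000 cells, and the last came from 96 interactions against 1. It was 2.83, 2.68 and 2.67 in 100,000 cells. The groups did not overlap there, nor at 100 to 200 kb, where the ratio averaged 2.26 ± 0.88 against 1.17 ± 0.19. Both comparisons gave an exact permutation p of 0.1, or 0.35 adjusted over the 7 classes. With both sides measured from the midpoint between the promoters, the difference at 50 to 100 kb was 0.11 in place of 1.53 (exact permutation p = 0.6). Without library E of 10,000 cells it was 0.37, and without library C the difference at 100 to 200 kb was 0.65 in place of 1.09. The 3 small libraries together held 24 interactions on the opposite side from 100 to 200 kb. From 200 to 500 kb the preference averaged 1.03 ± 0.61 against 1.38 ± 0.17, from 500 to 1000 kb 0.94 ± 0.74 against 1.19 ± 0.16, and from 1000 to 2000 kb 0.83 ± 0.93 against 1.32 ± 0.12. The groups overlapped in these classes. In the last, library A of 10,000 cells fell just below 0, at -0.05, from 27 interactions against 28, while the 3 large libraries stayed between 1.18 and 1.41.

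**Figure D5:**
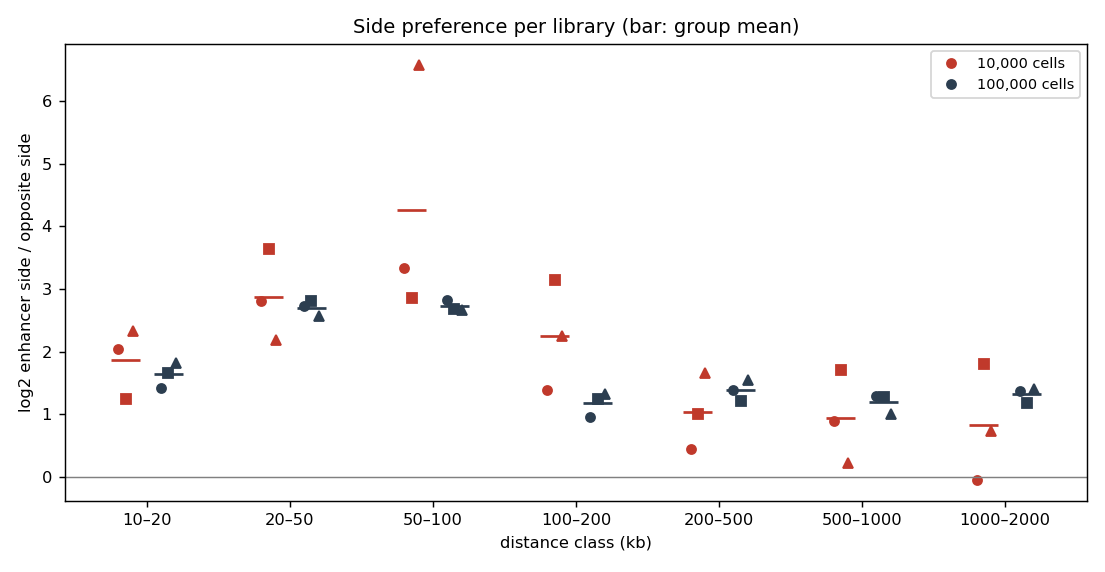
Log2 ratio of interactions on the enhancer side to those on the opposite side, for 7 distance classes in kb, with 1 point per library and a bar for the group mean. The libraries of 100,000 cells lie within 0.5 of each other in each class, and those of 10,000 cells spread more widely, with library E at 6.58 at 50 to 100 kb.

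The median distance of interactions within 250 kb was 28.4, 29.3 and 31.2 kb on the enhancer side in 10,000 cells and 28.7, 29.6 and 29.3 kb in 100,000 cells. On the opposite side it was 11.9, 13.7 and 11.9 kb against 15.2, 17.6 and 18.6 kb, without overlap (difference -4.63 kb, 95% interval -7.84 to -1.42, exact permutation p = 0.1). By this median the opposite side of 10,000 cells was shorter in reach, and the enhancer side overlapped with that of 100,000 cells. The p of 0.1 is the smallest that the test can give, and the decay slopes of the opposite side overlapped between the groups.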

How the data were processed

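The deposited counts are whole numbers of unique interactions of the pooled Hba-a1 and Hba-a2 promoters per DpnII fragment, with 1 column per library. Per the authors, reads with the same ends, or ends differing at 1 or 2 positions, were removed as PCR duplicates. The submitters' processing notes name Trim Galore, Bowtie and mm9; versions are not given in the sources used here. One of 7 tables was used.

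Fragments were assigned by midpoint to 5 kb windows, with edges 1 kb beyond multiples of 5 kb, and to distance classes. Listed stretches over 100 kb on other chromosomes were left out of the count of interactions that share a fragment. Shares were counts over the total of 2571 to 52093 interactions. edgeR 4.0.16 (quasi-likelihood test, library size the total, mean count of at least 10, Benjamini-Hochberg adjustment) was the main test, DESeq2 1.42.0 an alternative. Per-library values were compared by two-sided exact permutation tests, and 95% intervals of differences used the pooled SD. The fits were tested on simulated data. Called regions were to be named by the 2 smallest adjusted p in each direction. The members, windows and tests were chosen with earlier results of these data known. Alternatives included other normalisations, filters, windows, denominators and leaving out each library. Enhancer sequences and mm9 gene annotation were not used here. Columns carry letters, which were not tied to the labels' replicate numbers.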

Additional observations from a re-analysis of the deposited data

How the results depend on the processing

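The 22 results were recomputed under 247 alternatives. Of these 211 kept direction and call, or a count within 1.5 times. For the results compared by exact permutation the call could not change, since no p could fall below 0.1. For these only the direction could change. The slope differences per listed fragment equalled the main ones (-0.12 and 0.04) and add nothing. The main tests were not paired, because the columns carry letters and not the replicate numbers of the labels. The letters A and E occur in both groups, and no label ties a letter to a mouse. Deviations from the group means over the 77 windows correlated by 0.11 for A and 0.11 for E between the groups, against -0.22 to 0.11 for unlike letters. With the letter as a replicate block in a fit of all 12 libraries, added after the data were seen, edgeR called 0 windows, 0 fragments and 0 classes, R2 differed by 0.55 (adjusted p = 0.245), and the element-free window turned to 0.0022. The number of visible pairs in 10,000 cells (15 of 15) was 8 with single fragments, 6 with counts divided by the interactions sharing a fragment on other chromosomes, and 1 with the share of fragments that held an interaction, where 100,000 cells gave 0. It was 10 to 14 under the other alternatives, and with 2 kb windows Rm was visible in 0 of 3 libraries. Against 0 windows called by edgeR, DESeq2 called 2 with either size factors and edgeR 1 with a mean count of 30. For fragments, DESeq2 with library totals called 2 and edgeR with a mean count of 1 called 3. R2 passed at 0.49 and 0.51 with DESeq2 and 0.51 with a mean count of 30, and did not pass at 0.30 with TMM or 0.37 as a share within 250 kb. The differences of Rm and R4, near 0, turned sign: Rm to -0.21 with TMM, -0.017 with DESeq2's factors, -0.00 with 12 libraries (-1.05e-05) and with a mean count of 1 (-0.00438), -0.14 as a share within 250 kb and -0.020 as a share of the chromosome, and R4 to -0.18 with TMM and -0.12 within 250 kb. The enhancer-side slope difference was 0.00 from 10 to 500 kb (0.000765). Side preference differences turned to -0.16 at 10 to 20 kb with distances from the midpoint, and with distinct fragments to 0.28 at 200 to 500 kb and 0.45 at 500 to 1000 kb. The cause was not tested.

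Leaving out each library in turn, window calls ranged from 0 to 2 (2 without library C of 10,000 cells) and fragment calls from 0 to 1 (1 without its library A). The log2 differences ranged from -0.45 to -0.25 for R1, 0.46 to 0.56 for R2, 0.08 to 0.46 for R3, -0.28 to 0.23 for the element-free window, -0.22 to 0.13 for Rm and -0.021 to 0.10 for R4. The cis difference ranged from -0.17 to 2.25 points, the opposite-side slope difference from -0.0076 to 0.11, and the side preference difference from -0.20 to 0.53 at 20 to 50 kb and -0.63 to 0.11 at 500 to 1000 kb. At 50 to 100 kb it was 0.37 without library E of 10,000 cells. Depth limits the small libraries: by counting error alone, a 0 in a single library allows 88.4 to 117 per 100,000, and since interactions share fragments the true limit may be higher. The window 96 to 101 kb on the enhancer side was at 0 in library A and at 324 and 389 per 100,000 in C and E.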
